A study of Mus musculus with 6 samples.

Results

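The results concern 38 mouse genes of glycolysis, the pentose phosphate pathway and the response to low oxygen, measured by RNA sequencing in CD8 T cells. The genes were taken from a list of names, and all 38 were found among the 46517 gene identifiers of each count table. The rule names the genes and uses no measured value, but the list was drawn up with earlier results of these data known. By role, 9 genes belong to the preparatory phase of glycolysis, 7 to its payoff phase, 6 to lactate and pyruvate metabolism and 2 to the control of fructose 2,6-bisphosphate. A further 4 belong to the pentose phosphate pathway, 4 are HIF-1alpha and its oxygen sensors, and 6 are hypoxia-responsive genes.

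The series compared CD8 T cells given supernatant of basophils kept with IL-3 with CD8 T cells given supernatant of basophils kept with PBS, in 3 libraries each. The cells were naive at the start, came from spleen and lymph nodes of C57BL/6J mice, and spent 3 days on plates coated with 5 µg/mL antibody to CD3, with 0.5 µg/mL antibody to CD28 and 100 units/mL IL-2. The supernatant was present from day 1 to day 2. Sorted basophils had made it over 2 days in medium that held 100 units/mL IL-2. For the IL-3 group this medium also held 3 ng/mL IL-3, and for the PBS group PBS in its place. Both groups therefore shared the strain, the stimulation, the IL-2 and exposure to basophil medium, and both grew in medium with added glutamine and sodium pyruvate. IL-3 carried over with the supernatant and products of the basophils cannot be told apart in this design. The labels do not state an oxygen level. They also leave unsaid whether the libraries of a group stem from different animals or culture wells, and p-values then cover only the spread among them, which may be technical.

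Glycolysis splits glucose into pyruvate in a preparatory phase that spends ATP and a payoff phase that returns it, and lactate dehydrogenase reduces pyruvate to lactate. The pentose phosphate pathway branches off at glucose 6-phosphate and yields NADPH and ribose. Activated T cells are known for running glycolysis fast even with oxygen present. Many of the same enzymes are targets of hypoxia-inducible factor (HIF), a pair of an oxygen-regulated alpha subunit and ARNT, whose alpha subunit is marked for destruction by the EGLN prolyl hydroxylases when oxygen is present.

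The pathway did not move as a block. Of the 38 genes, 6 were higher and 6 were lower in the IL-3 group at an adjusted p below 0.05, and 26 were not called. Here and below, "edgeR adjusted p" is the p of edgeR's quasi-likelihood test with Benjamini-Hochberg adjustment over all 12407 genes tested. Over all genes tested, 30.9% were called (14.8% higher and 16.1% lower), and 31.6% of the 38 were. The median log2 fold change of the 38 was 0.00 and their median absolute log2 fold change was 0.19, beside -0.00 and 0.20 over all genes tested. The higher genes were Egln3, Vegfa, Hk2, Pfkm, G6pdx and Gapdh. The lower genes were Eno3, Pdk1, Pfkfb3, Gpi1, P4ha1 and Egln1. Of the 12, Egln3 and Eno3 changed by 2-fold or more. In CPM, the counts scaled to a common library size with TMM, 9 of the 38 had all IL-3 libraries above all PBS libraries and 11 had all below, beside 21.0% and 22.6% of all genes tested (43.6% in either direction). The count of 6 higher genes became 3 without IL-3 replicate 1 and 3 without IL-3 replicate 3, and the count of 6 lower genes became 4 without PBS replicate 2, IL-3 replicate 2 or IL-3 replicate 3. All 38 genes passed the filter on low counts, 37 of them through either group and Pdk2 through the PBS group alone. Pdk2 is among the 11, and nothing is read from its lack of overlap. Where 2 sets of CPM follow a gene below, the first is PBS replicates 1 to 3 and the second IL-3 replicates 1 to 3.

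**Figure D1:**
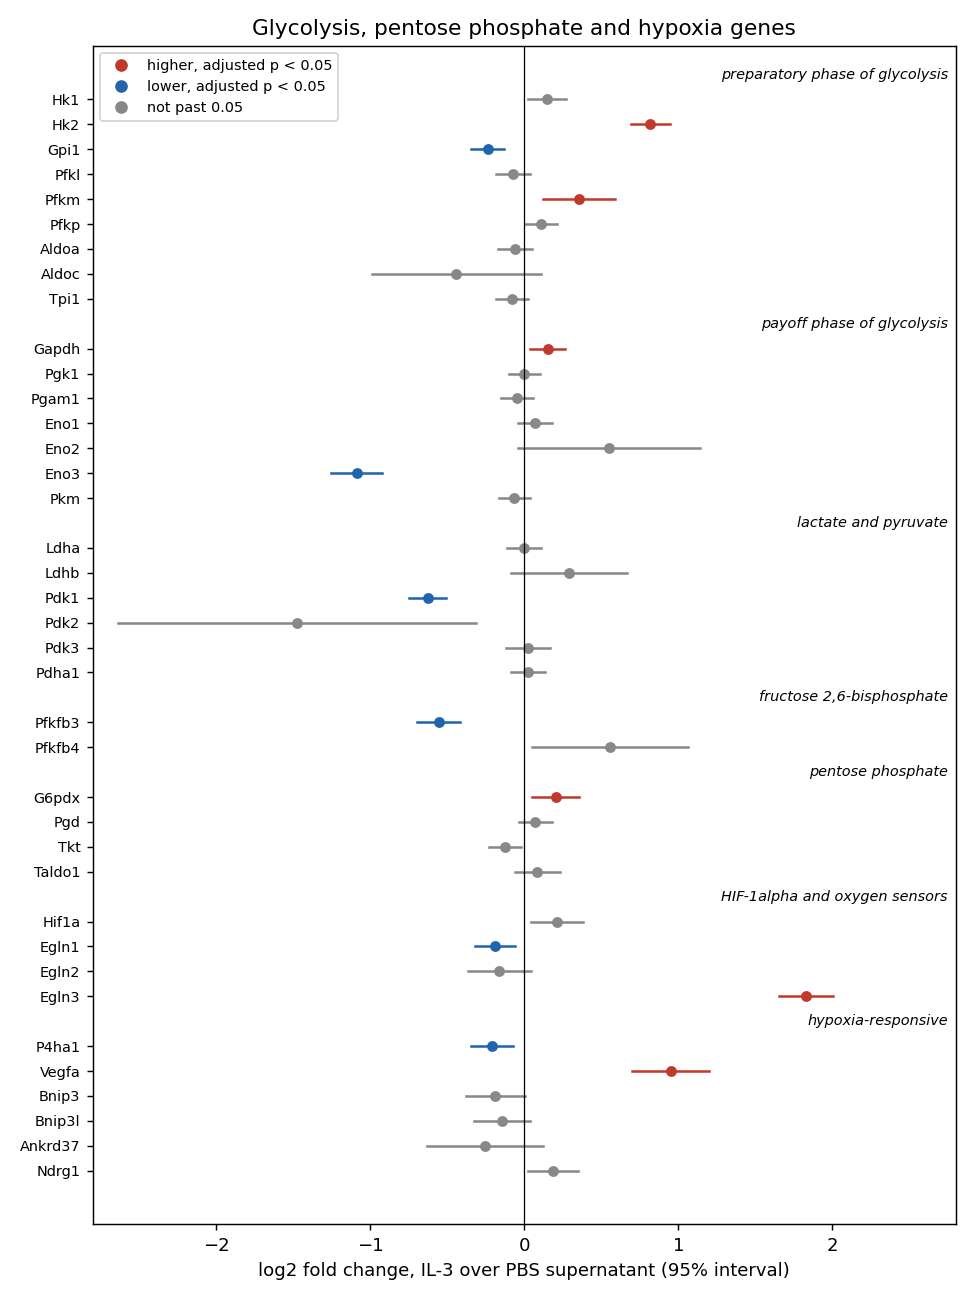
Log2 fold change of each of the 38 genes, IL-3 over PBS supernatant (x axis), by role (y axis). Points are estimates of the edgeR fit over 3 and 3 libraries, bars are 95% intervals, and colour marks the side of the adjusted p of 0.05. Egln3 lies farthest right at 1.83, while 26 genes in grey were not called, among them most of the abundant enzymes.

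The libraries held between 17377052 and 22174902 expected counts. The T cell markers Cd3e, Cd3d, Cd3g, Cd8a, Cd8b1, Trac and Lck summed to 2355 to 2525 CPM in the PBS group and 1573 to 1719 CPM in the IL-3 group, and 6 of the 7 were lower, Lck being the exception. The 8 basophil and mast cell markers summed to at most 0.991 CPM in any library, with Mcpt8, Prss34, Fcer1a and Ms4a2 at 0 in all 6, and the 4 neutrophil markers were also at 0. The 6 macrophage and dendritic cell markers summed to at most 0.570 CPM the 5 B cell markers to at most 3.77 CPM and the 3 erythroid markers to at most 0.180 CPM. The CD4 T cell markers Cd4 and Zbtb7b summed to 5.64 to 8.68 CPM in the PBS group. In the IL-3 group they summed to 17.4 to 19.4 CPM. Zbtb7b alone was higher, with means of 6.36 CPM in the PBS group and 18.0 CPM in the IL-3 group. Cd4 was too low to test and its means went the other way, at 0.692 and 0.301 CPM, with overlap. Of the 3 NK cell markers, Ncr1 and Klrb1c each had 1 count in PBS replicate 1 and 0 in every other library. Their sum with Eomes was thus nearly all Eomes, at 38 to 44.4 CPM in the PBS group and 10.9 to 12.4 CPM in the IL-3 group. The lower T cell marker sum, the lower Eomes and the higher Zbtb7b go along with every comparison below, and their part in the results was not tested. In bulk RNA a change in the share of cells that express a gene and a change in RNA per cell cannot be told apart. A single feature, CT010467.1, took 4.51% of the counts in PBS replicate 2 and 0.433% to 2.2% in the others, and leaving it out kept 6 higher and 6 lower members.

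In the preparatory phase, Hk2 and Pfkm were higher, Gpi1 was lower, and 6 of 9 genes were not called. Hk2 encodes the inducible, mitochondria-binding hexokinase that commits glucose to the cell by phosphorylating it. It stood at 234, 218 and 198 CPM in PBS replicates 1 to 3 and at 388, 381 and 377 CPM in IL-3 replicates 1 to 3. Every IL-3 library was thus far above every PBS library, with a spread between replicates much smaller than the gap. The difference was 1.76-fold (log2 fold change 0.82, SE 0.06, edgeR adjusted p = 1.6e-08), and its size exceeded that of 87.5% of all genes tested. The other hexokinase gene, Hk1, stood at 185, 196 and 190.2 CPM and 226, 198 and 209.5 CPM. Its libraries did not overlap either, but the difference was small (log2 fold change 0.15, SE 0.06) and not called (edgeR adjusted p = 0.066). The adjusted p of Hk1 became 0.02 without IL-3 replicate 2, which would be a call. Hk2 lies at chr6:82725025-82774454 and Hk1 at chr10:62268855-62379908 (GRCm38). The 250 bases before the RefSeq start of Hk2 are chr6:82774455-82774704 on the minus strand. They are shown because promoters are printed for the called genes with the largest log2 fold changes in size. They hold 2 copies of the core letters of the hypoxia response element. That core is ACGTG or GCGTG, or its reverse complement CACGT or CACGC, and capitals mark it here and in the promoters below.
Hk2: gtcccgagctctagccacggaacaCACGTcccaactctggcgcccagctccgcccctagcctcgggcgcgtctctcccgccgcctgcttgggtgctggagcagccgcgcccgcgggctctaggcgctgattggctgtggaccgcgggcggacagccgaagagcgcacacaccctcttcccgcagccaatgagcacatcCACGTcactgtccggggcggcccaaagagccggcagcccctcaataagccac

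Gpi1, which turns glucose 6-phosphate into fructose 6-phosphate, stood at 619, 663 and 630.0 CPM in the PBS group and 559, 519 and 542 CPM in the IL-3 group. The groups did not overlap. It was 1.18-fold lower (log2 fold change -0.24, SE 0.05, edgeR adjusted p = 0.0019). The 3 phosphofructokinase genes, whose enzyme makes fructose 1,6-bisphosphate, did not share a call. The muscle form Pfkm stood at 15.5, 19.5 and 19.6 CPM and 24.8, 21.2 and 23.8 CPM, with PBS replicate 1 below the rest. The groups did not overlap, and Pfkm was 1.28-fold higher (log2 fold change 0.36, SE 0.11, edgeR adjusted p = 0.022). Its call was lost without PBS replicate 1 (edgeR adjusted p = 0.085), IL-3 replicate 1 (0.098) or IL-3 replicate 3 (0.075). Gm26513, an annotated gene that matches part of Pfkm in sequence, held 3.79%, 3.57% and 2% of the counts of both in PBS replicates 1 to 3. In IL-3 replicates 1 to 3 it held 0.619%, 1.67% and 1.06%. The call of Pfkm was kept when these counts were added to it. The platelet form Pfkp, the most abundant of the 3, stood at 474, 480.1 and 458 CPM and 510.4, 513 and 499 CPM. These groups did not overlap either, yet the difference of 0.11 on the log2 scale (95% interval 0.01 to 0.21) was not called. The liver form Pfkl stood at 199, 200.4 and 200.6 CPM and 196, 186 and 189 CPM, a difference of -0.07, also not called.

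Aldolase and triose phosphate isomerase, which close this phase by making and interconverting the triose phosphates, were not called. Aldoa stood at 1234, 1272 and 1253 CPM in the PBS group and 1276, 1150.1 and 1182 CPM in the IL-3 group. Its groups overlapped, and the 95% interval of the log2 fold change ran from -0.17 to 0.05. Tpi1 stood at 816, 853 and 832 CPM and 806, 758 and 804 CPM, without overlap and with an interval from -0.18 to 0.03. The brain form Aldoc was scarce at 4.56, 5.65 and 3.31 CPM and 3.30, 4.14 and 2.50 CPM, and its interval from -0.99 to 0.11 was wide.

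In the payoff phase, Eno3 was lower, Gapdh was slightly higher, and 5 of 7 genes were not called. Gapdh encodes the dehydrogenase that makes the NADH of glycolysis and often serves as a reference gene. It stood at 4625, 5053 and 4896 CPM in the PBS group and 5540.2, 5119.6 and 5521 CPM in the IL-3 group. The groups did not overlap, although IL-3 replicate 2 lay close to PBS replicate 2. Gapdh was 1.11-fold higher (log2 fold change 0.15, SE 0.05, edgeR adjusted p = 0.041). The call was lost without PBS replicate 1 (edgeR adjusted p = 0.057), PBS replicate 3 (0.1), IL-3 replicate 1 (0.15) or IL-3 replicate 3 (0.17). The genome holds many near-identical Gapdh copies, and the 85 found by sequence held between 0.687% and 0.792% of the counts of Gapdh and its copies together.

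Pgk1 and Pgam1, the kinase that returns the first ATP and the mutase after it, were not called. Pgk1 stood at 1417, 1446 and 1448 CPM in the PBS group and 1469.5, 1443 and 1402 CPM in the IL-3 group, and the 95% interval of its log2 fold change ran from -0.10 to 0.10. Pgam1 stood at 776, 826 and 809 CPM and 784, 781 and 766 CPM, with an interval from -0.15 to 0.05. Pgk1 overlapped between the groups, as did Pgam1.

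The 3 enolase genes, for the enzyme that makes phosphoenolpyruvate, went separate ways. The muscle form Eno3 stood at 87.1, 104 and 95.3 CPM in PBS replicates 1 to 3 and at 47.4, 41.1 and 46.3 CPM in IL-3 replicates 1 to 3. All IL-3 libraries were thus at about the same level, far below the lowest PBS library. Eno3 was 2.13-fold lower (log2 fold change -1.09, SE 0.08, edgeR adjusted p = 1.2e-08), a size above that of 91.7% of genes tested. The main form Eno1 stood at 2318, 2469 and 2406 CPM and 2652, 2394 and 2511 CPM, with overlapping groups and a log2 fold change of 0.07 that was not called. The neuronal form Eno2 stood at 1.84, 2.27 and 2.96 CPM and 3.60, 2.88 and 3.88 CPM, 0.55 on the log2 scale with a 95% interval from -0.04 to 1.14, and was not called. Eno3 lies at chr11:70657202-70662513 on the plus strand and Eno1 at chr4:150236721-150248879 (GRCm38). The 250 bases before the RefSeq start of Eno3, chr11:70656926-70657175 on the plus strand, are shown because Eno3 fell most among the 12 called genes, and they hold 1 core.
Eno3: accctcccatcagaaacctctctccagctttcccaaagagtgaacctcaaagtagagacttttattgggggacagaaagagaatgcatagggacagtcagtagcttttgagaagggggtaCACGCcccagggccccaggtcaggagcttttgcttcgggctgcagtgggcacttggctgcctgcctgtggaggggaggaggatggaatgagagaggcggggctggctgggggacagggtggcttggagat

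Pkm encodes pyruvate kinase, the last enzyme of glycolysis. It stood at 2169.6, 2189.9 and 2222 CPM in the PBS group and 2154, 2074 and 2067 CPM in the IL-3 group. The groups did not overlap, but the difference was -0.06 on the log2 scale (95% interval -0.17 to 0.04) and was not called. Its transcripts carry 1 of 2 alternative exons, which give the Pkm1 form of muscle and brain or the Pkm2 form of proliferating cells. Transcript values were used for PBS replicate 2, whose TPM table (transcript abundance scaled for length and library) is per isoform. In that library the Pkm2 transcript held 1631 TPM, which was 98.0% of Pkm, and the Pkm1 transcript held 33.1 TPM, or 1.99%. No comparison of the forms between the groups was made. The alternative exons are shown because the reads that tell the forms apart come from them. Both are the 9th exon of their transcript, 167 bases long and on the plus strand of chromosome 9, at chr9:59675029-59675195 for Pkm1 and chr9:59675568-59675734 for Pkm2 (GRCm38). Capitals mark the 64 bases at which they differ, and the other 103 (61.7% of the exon) are the same.
Pkm1 exon: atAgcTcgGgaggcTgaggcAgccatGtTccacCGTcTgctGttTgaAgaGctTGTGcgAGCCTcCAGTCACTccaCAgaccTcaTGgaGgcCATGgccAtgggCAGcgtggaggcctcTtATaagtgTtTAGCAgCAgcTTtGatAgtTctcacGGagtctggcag
Pkm2 exon: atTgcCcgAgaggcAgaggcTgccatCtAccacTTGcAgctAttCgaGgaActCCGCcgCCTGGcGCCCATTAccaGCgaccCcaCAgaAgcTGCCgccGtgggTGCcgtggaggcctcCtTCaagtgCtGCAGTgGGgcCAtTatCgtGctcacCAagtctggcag

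**Figure D2:**
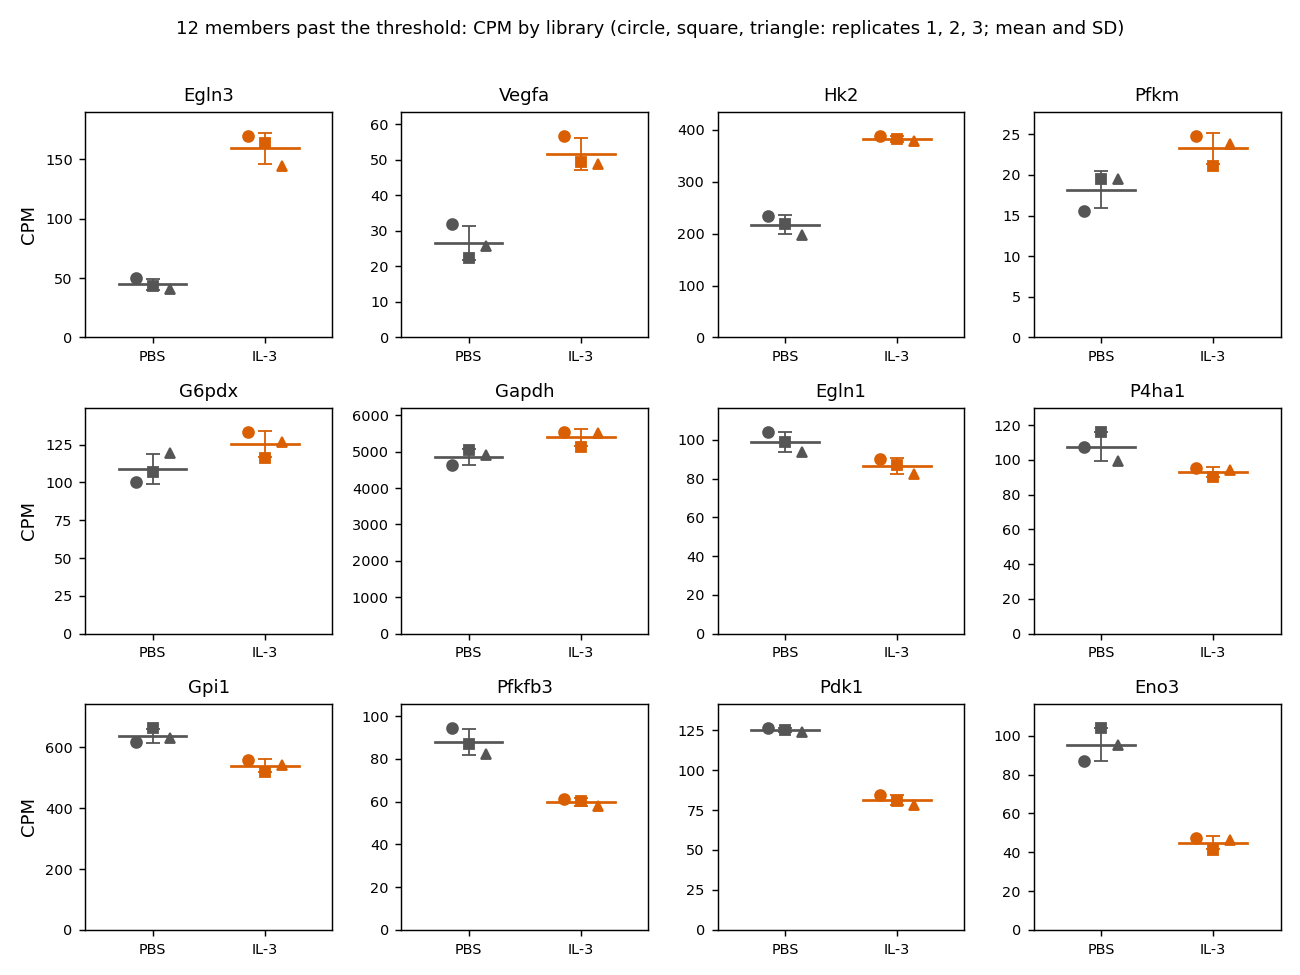
CPM (y axis, from 0) of the 12 called genes in each library by group (x axis), with circle, square and triangle for replicates 1, 2 and 3, and a bar for the mean with its SD. Egln3, Vegfa, Hk2, Pfkfb3, Pdk1 and Eno3 show gaps well beyond the replicate spread, while G6pdx overlaps between groups and Gapdh, Egln1 and Pfkm are close.

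Among the genes of lactate and pyruvate, Pdk1 was lower and 5 of 6 were not called. Ldha, the main subunit of lactate dehydrogenase, stood at 2435, 2634 and 2561 CPM in the PBS group and 2605, 2425 and 2602 CPM in the IL-3 group. The groups overlapped almost fully, and the 95% interval of its log2 fold change of 0.00 ran from -0.11 to 0.11. The other subunit gene, Ldhb, stood at 6.68, 6.59 and 7.58 CPM and 8.14, 6.66 and 10.7 CPM, and its log2 fold change of 0.29 was not called. It was 0.089 without IL-3 replicate 3 and 0.45 without IL-3 replicate 2, neither a call.

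The pyruvate dehydrogenase kinases switch off the complex that feeds pyruvate into the mitochondrial cycle. Pdk1 stood at 126, 125 and 124 CPM in PBS replicates 1 to 3 and at 84.2, 80.9 and 78.1 CPM in IL-3 replicates 1 to 3. The PBS libraries were nearly equal, and each IL-3 library lay well below them. Pdk1 was 1.54-fold lower (log2 fold change -0.63, SE 0.06, edgeR adjusted p = 2.1e-07). Pdk3 stood at 63.2, 62.6 and 67.6 CPM and 63.2, 63.8 and 69.5 CPM, with a log2 fold change of 0.02. Pdk2 was near the limit of the filter at 0.946, 1.5 and 1.14 CPM and 0.721, 0.450 and 0.102 CPM, and its log2 fold change of -1.48 (95% interval -2.64 to -0.32) was not called (edgeR adjusted p = 0.051). Pdk2 passed the filter through the PBS group alone, where it was higher. Its groups did not overlap, and without IL-3 replicate 1 its edgeR adjusted p was 0.037, but nothing is read from either. Pdha1, a catalytic subunit of the complex itself, stood at 199.6, 199 and 190.5 CPM and 197, 205 and 198 CPM and was not called. Pdk1, a textbook target of HIF-1, lies at chr2:71873224-71903858 (GRCm38). The 250 bases before the more upstream of its 2 RefSeq starts, chr2:71872974-71873223 on the plus strand, are shown by the same rule as those of Hk2. They hold 1 core.
Pdk1: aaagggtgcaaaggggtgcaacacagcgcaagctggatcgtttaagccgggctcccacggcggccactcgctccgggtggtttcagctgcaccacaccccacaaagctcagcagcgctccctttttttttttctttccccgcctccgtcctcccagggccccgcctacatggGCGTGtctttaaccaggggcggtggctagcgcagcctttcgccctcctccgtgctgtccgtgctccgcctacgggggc

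The PFKFB enzymes make and remove fructose 2,6-bisphosphate, the strongest activator of phosphofructokinase. Pfkfb3, the form with mostly kinase activity, stood at 94.4, 87.1 and 82.2 CPM in the PBS group and 61.3, 60.3 and 57.7 CPM in the IL-3 group. The groups did not overlap, and the IL-3 libraries lay close together. Pfkfb3 was 1.47-fold lower (log2 fold change -0.56, SE 0.07, edgeR adjusted p = 5.7e-06). The scarce Pfkfb4 stood at 3.00, 4.49 and 2.57 CPM and 4.22, 5.09 and 5.51 CPM, with a log2 fold change of 0.56 (SE 0.24) that was not called. Without PBS replicate 2 the log2 fold change of Pfkfb4 was 0.84 with an edgeR adjusted p of 0.021, a call, and without PBS replicate 3 it was 0.40. Pfkfb3 lies at chr2:11471433-11554077 and Pfkfb4 at chr9:108991778-109032228 (GRCm38).

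In the pentose phosphate pathway, G6pdx was higher and 3 of 4 genes were not called. G6pdx encodes glucose-6-phosphate dehydrogenase, the NADPH-making enzyme at the entry. It stood at 100.2, 107 and 119.5 CPM in the PBS group and 133, 116 and 127 CPM in the IL-3 group. The groups overlapped, since PBS replicate 3 exceeded IL-3 replicate 2, and the difference was 1.15-fold (log2 fold change 0.20, SE 0.07, edgeR adjusted p = 0.04). The call was lost without PBS replicate 1 (edgeR adjusted p = 0.1), PBS replicate 2 (0.095), IL-3 replicate 1 (0.18) or IL-3 replicate 3 (0.11). Pgd, which makes the second NADPH, stood at 241, 239.9 and 232 CPM and 251, 252 and 245 CPM, without overlap, at a log2 fold change of 0.07 that was not called. Of the genes of the branch that returns carbon to glycolysis, Tkt stood at 592, 598 and 586 CPM and 551, 526 and 555 CPM, without overlap and -0.12 on the log2 scale (edgeR adjusted p = 0.068). Taldo1 stood at 99.4, 116 and 109 CPM and 123, 113 and 108 CPM, with overlap.

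Hif1a, the gene of the HIF-1alpha subunit, was not called, and of its 3 sensors 1 was higher and 1 lower. Hif1a stood at 416, 339 and 337 CPM in the PBS group and 424, 439 and 401 CPM in the IL-3 group. PBS replicate 1 overlapped the IL-3 group, while PBS replicates 2 and 3 lay below it. Its difference of 0.21 on the log2 scale had an SE of 0.08 and an edgeR adjusted p of 0.057. With PBS replicate 1 left out, the difference was 0.32 with an edgeR adjusted p of 4.9e-05. Hif1a was called higher under 6 of the 21 alternatives, among them the DESeq2 test (adjusted p = 0.016) and limma-voom (adjusted p = 0.047), at a log2 fold change of 0.22 in both. HIF-1alpha is controlled mainly at the protein, which was not measured.

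Egln3, which encodes an EGLN hydroxylase, had the largest log2 fold change of the 38. It stood at 50.1, 43.7 and 40.6 CPM in PBS replicates 1 to 3 and at 169.8, 163 and 144 CPM in IL-3 replicates 1 to 3. The lowest IL-3 library was far above the highest PBS library. Egln3 was 3.55-fold higher (log2 fold change 1.83, SE 0.08, edgeR adjusted p = 3.7e-10), a size above that of 96.8% of genes tested. Egln1, the main sensor in most cells, stood at 104, 98.7 and 93.9 CPM and 90.4, 87.3 and 82.2 CPM. Its groups were close but did not overlap, and it was 1.14-fold lower (log2 fold change -0.19, SE 0.06, edgeR adjusted p = 0.027). That call was lost without PBS replicate 1 (edgeR adjusted p = 0.073), PBS replicate 2 (0.086), IL-3 replicate 2 (0.079) or IL-3 replicate 3 (0.14). Egln2 stood at 30.5, 33.4 and 37.7 CPM and 33.0, 29.6 and 28.3 CPM, with overlap. Egln3 lies at chr12:54178981-54203860 on the minus strand (GRCm38). The 250 bases before its RefSeq start, chr12:54203875-54204124 on the minus strand, are shown because it was the most changed of the 38 genes, and they hold 1 core.
Egln3: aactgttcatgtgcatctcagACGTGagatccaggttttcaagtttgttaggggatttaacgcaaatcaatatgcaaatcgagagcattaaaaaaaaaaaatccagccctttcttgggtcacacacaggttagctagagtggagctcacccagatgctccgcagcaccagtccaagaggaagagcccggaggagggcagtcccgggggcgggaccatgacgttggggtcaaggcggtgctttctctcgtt

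The 6 other hypoxia-responsive genes split, with Vegfa higher, P4ha1 lower and 4 not called. Vegfa, which encodes a growth factor for blood vessels, stood at 31.9, 22.5 and 25.7 CPM in the PBS group and 56.8, 49.4 and 48.9 CPM in the IL-3 group. The groups did not overlap, with replicate 1 the highest of each. Vegfa was 1.93-fold higher (log2 fold change 0.95, SE 0.12, edgeR adjusted p = 2.3e-05). P4ha1, a subunit of the collagen prolyl hydroxylase, stood at 107, 116 and 99.4 CPM and 95.5, 89.9 and 94.0 CPM, without overlap. It was 1.16-fold lower (log2 fold change -0.21, SE 0.06, edgeR adjusted p = 0.021). The call was lost without PBS replicate 2 (edgeR adjusted p = 0.17), IL-3 replicate 2 (0.11) or IL-3 replicate 3 (0.06). Vegfa lies at chr17:46016993-46032369 (GRCm38). The 250 bases before the more upstream of its 2 RefSeq starts, chr17:46032378-46032627 on the minus strand, are shown because Vegfa was among the 3 most raised genes, and in them the core was not found. The window before the other start, chr17:46025164-46025413, holds 2 cores.
Vegfa: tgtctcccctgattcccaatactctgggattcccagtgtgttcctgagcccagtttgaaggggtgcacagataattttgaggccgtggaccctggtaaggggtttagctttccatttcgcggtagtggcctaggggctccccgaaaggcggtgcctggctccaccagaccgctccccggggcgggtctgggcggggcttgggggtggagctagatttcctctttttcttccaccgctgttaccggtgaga

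Bnip3 and Bnip3l, which encode receptors for the removal of mitochondria, were not called. Bnip3 stood at 55.2, 50.1 and 45.7 CPM in the PBS group and 47.0, 46.3 and 39.3 CPM in the IL-3 group, and Bnip3l at 83.1, 66.1 and 68.5 CPM and 65.8, 69.9 and 61.3 CPM. In both genes PBS replicate 1 was the highest library and the groups overlapped. The log2 fold changes were -0.19 and -0.14, and -0.12 and -0.036 without PBS replicate 1. Ankrd37, a small ankyrin repeat gene, stood at 5.23, 7.20 and 6.78 CPM and 5.10, 5.13 and 5.87 CPM, with overlap. Ndrg1, a stress-responsive gene, stood at 47.6, 46.5 and 42.7 CPM and 52.3, 48.8 and 54.6 CPM, without overlap but not called (log2 fold change 0.18, edgeR adjusted p = 0.079). Without PBS replicate 1 the edgeR adjusted p of Ndrg1 was 0.0499 and without IL-3 replicate 2 it was 0.046, both calls.

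Promoters of the RefSeq table were searched for the core on both strands in the 250 bases before each listed start. Of the 38 genes, 36 had a promoter in the table (build GRCm38.p6), and 33 of these (91.7%) held the core in at least 1 listed window, against 11226 of 27025 genes (41.5%) in the whole table. By window, 42 of 53 windows of these genes (79.2%) held it, against 38.6% of all windows. The share did not sort the genes by direction, at 6 of 6 higher genes, 5 of 6 lower genes and 22 of 24 genes that were not called. The E-box CACGTG, which MYC and its relatives bind and which contains the core ACGTG, was found in 6 of 36 genes (16.7%) and in 6.86% of all genes. A run of 5 letters is a description of the sequence and not a binding site, and base composition was not matched.

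Levels between genes can be compared on the TPM scale. Gapdh was the most abundant at 6567 and 7419 TPM (means of the PBS and IL-3 groups), then Ldha at 3089 and 3143 TPM, Eno1 at 2285 and 2448 TPM and Pkm at 1736 and 1689 TPM. Aldoa followed at 1619 and 1588 TPM, Pgk1 at 1516 and 1544 TPM, Tpi1 at 1005 and 969 TPM, Pgam1 at 844 and 831 TPM and Gpi1 at 593 and 511 TPM. Aldoa and Pgk1 are neighbours whose ranges over libraries overlap, as are Pkm and Aldoa. These 9 genes, each with a mean of 500 TPM or more, had log2 fold changes from -0.24 to 0.15, with 1 higher and 1 lower. The 9 genes between 100 and 500 TPM ran from -0.12 to 0.82, with Hk2 higher. The 16 genes between 10 and 100 TPM ran from -1.09 to 1.83, with 4 higher and 5 lower. The 4 genes under 10 TPM (Aldoc, Eno2, Pfkfb4 and Pdk2) had none called, with SE between 0.24 and 0.55. Of the 12 calls, 9 lay between 10 and 100 TPM. The share called among all genes at each level was not worked out, so nothing is read from this count. The 18 glycolytic enzyme genes, lactate dehydrogenase included, together held 1.99%, 1.97% and 2.03% of all TPM in the PBS libraries and 2.15%, 2.00% and 2.13% in the IL-3 libraries. IL-3 replicate 2 lay within the PBS range, so the groups overlapped.

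**Figure D3:**
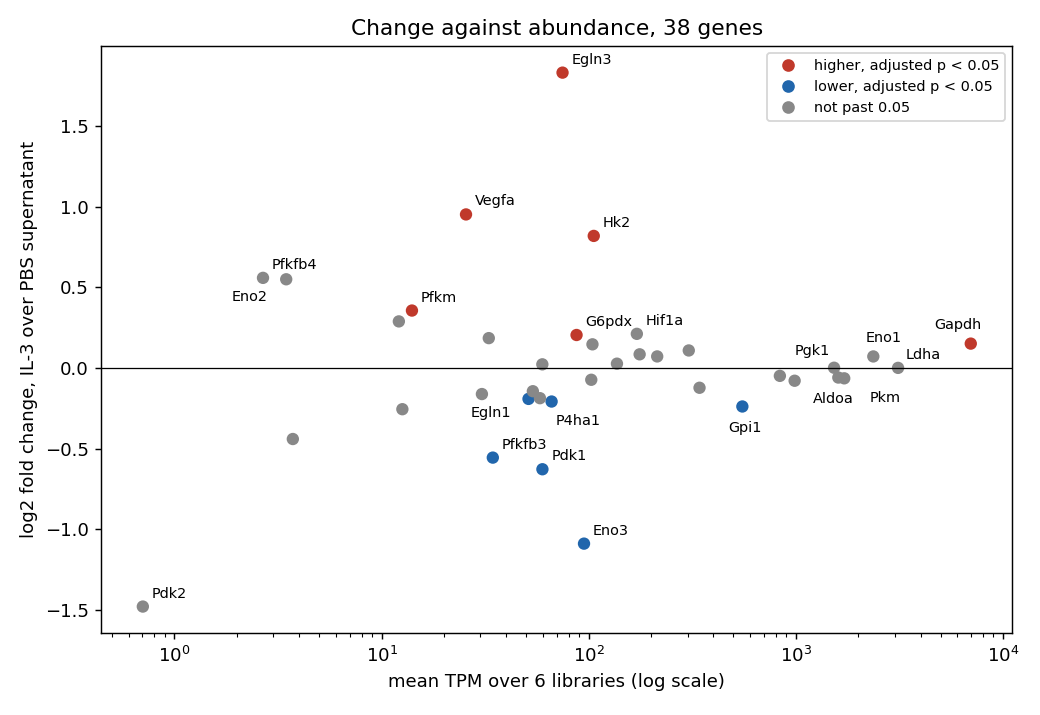
Log2 fold change (y axis) against mean TPM over the 6 libraries (x axis, log scale) of the 38 genes, coloured by call. The genes of 500 TPM or more lie between -0.24 and 0.15, and the called genes beyond 0.5 in size lie between 25.6 and 106 TPM.

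Within a family of isozymes, shares of the summed TPM show which form makes up the message. The 9 families hold 22 genes. For 15 of the 22, in 6 families, the share did not overlap between the groups. Over all genes tested 43.6% did not overlap in CPM, which is for single genes and is no baseline for shares within a family. Shares of a family sum to 100%, so the 15 results are not independent. The 15 include Pdk2, which passed the filter through the PBS group alone. In hexokinase and PFKFB, the 2 of these 6 families with 2 genes, both genes carry the same result. Each of the 15 had an exact two-sided permutation p of 0.1, the smallest that 3 against 3 libraries allow, so none can pass 0.05. The hexokinase message went from a Hk2 share of 43.4% ± 2.27 in the PBS group to 55.3% ± 1.66 in the IL-3 group (SD, n = 3 each), so that Hk2 exceeded Hk1 in every IL-3 library and in no PBS library. The 3 EGLN genes changed order. Egln1 was first in the PBS group with 45.7% ± 1.32, and Egln3 was first in the IL-3 group with 60.2% ± 0.684, up from 27.3% ± 2.21. The pyruvate dehydrogenase kinases also changed order, with Pdk1 at 54.4% ± 1.42 against 44.2% ± 2.01 and Pdk3 at 44.8% ± 1.39 against 55.5% ± 2.15. The CPM of Pdk3 itself differed by 0.02 on the log2 scale (95% interval -0.12 to 0.17), as given above.

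Differences in the other families were smaller. The Eno3 share was 5.32% ± 0.334 in the PBS group and 2.43% ± 0.0386 in the IL-3 group, and Eno1 made up nearly all of the rest. The Pfkfb4 share was 5.43% ± 0.985 and 9.81% ± 1.73. Pfkp held 71.0% ± 0.987 and 73.4% ± 0.769 of phosphofructokinase, and Pfkl 26.0% ± 0.659 and 23.0% ± 0.491. The share of Pfkm (3.02% ± 0.412 and 3.62% ± 0.292) overlapped between the groups. Aldolase and lactate dehydrogenase were made up almost wholly of Aldoa (99.7% ± 0.0650 and 99.8% ± 0.0889) and Ldha (99.7% ± 0.0258 and 99.6% ± 0.107) in both groups. Bnip3 held 52.1% ± 2.97 and 52.2% ± 4.90 of the summed Bnip3 and Bnip3l message, with overlap.

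**Figure D4:**
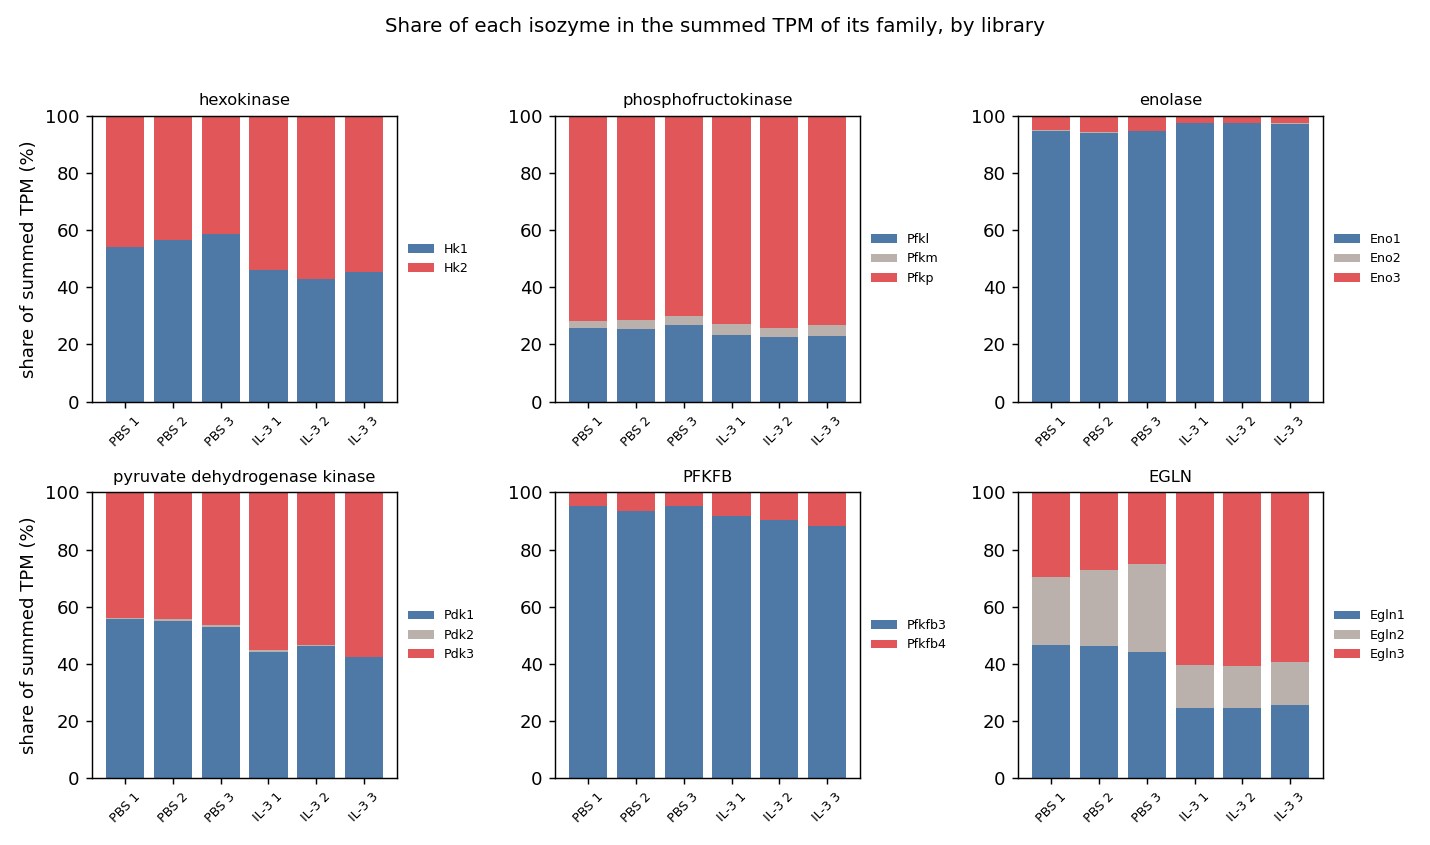
Share of each isozyme in the summed TPM of its family (y axis, 0 to 100%) in each of the 6 libraries (x axis), for 6 families. The Hk2 and Egln3 shares are larger in the 3 IL-3 libraries than in any PBS library, and the Eno3 and Pdk1 shares are smaller.

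Libraries differed in ways that touch these genes together. In CPM, PBS replicate 1 was the lowest of its group in 14 of the 18 glycolytic enzymes and the highest in 7 of the 10 HIF, sensor and hypoxia-responsive genes. IL-3 replicate 1 was the highest of its group in 14 of the 18 enzymes, and IL-3 replicate 2 the lowest in 12. Such deviations of 1 library ran through many enzymes at once. Whether they also ran through the other genes tested was not examined.

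Genes of the same pathway outside the 38 were taken from 6 further lists of 105 names, of which 104 were found and 88 could be tested. Of these 20 were higher and 17 lower (42.0% called, beside 30.9% of all genes tested). These lists were also chosen with earlier results known, so nothing is read from the difference between these shares. The same holds for the count of each list below, beside 14.8% higher and 16.1% lower among all genes tested. Without PBS replicate 2 the count of lower genes fell to 9. The list of transporters had 3 higher and 0 lower of 7 tested, with the other 4 not called. Slc2a6, which encodes a member of the glucose transporter family found on internal membranes, stood at 10.2, 13.7 and 11.7 CPM in the PBS group and 62.3, 60.4 and 68.5 CPM in the IL-3 group. The groups were far apart, at a 5.36-fold difference (log2 fold change 2.42, SE 0.10, edgeR adjusted p = 1.9e-11). Slc2a8, another intracellular sugar transporter, was 2.11-fold higher at 3.39, 3.16 and 3.82 CPM and 6.90, 7.20 and 7.81 CPM. Bsg, the chaperone of the lactate transporters, was 1.27-fold higher at 282, 291 and 276 CPM and 367, 358 and 353 CPM. The main glucose transporters of T cells were not called, with Slc2a1 at 136, 134 and 135 CPM and 148, 151 and 136 CPM, and Slc2a3 at 92.9, 82.7 and 84.2 CPM and 76.9, 80.1 and 73.6 CPM. Slc2a3 was close to a call and its groups did not overlap (log2 fold change -0.17, edgeR adjusted p = 0.051). The lactate transporters were not called either, with log2 fold changes of -0.13 for Slc16a1 and 0.18 for Slc16a3 (edgeR adjusted p = 0.057).

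Of 20 further genes of glycolysis and pyruvate dehydrogenase, 3 were higher and 3 lower. Dld, a subunit shared by the dehydrogenase complexes, stood at 149.7, 140.3 and 132 CPM in the PBS group and 173, 189 and 168 CPM in the IL-3 group and was 1.26-fold higher. Pdp1, the phosphatase that undoes the work of the kinases, was 1.44-fold lower at 13.1, 10.6 and 10.4 CPM and 8.24, 8.65 and 6.69 CPM. Its call was lost without PBS replicate 1 (edgeR adjusted p = 0.058) or IL-3 replicate 3 (0.067). The calls of Pfkfb1 (log2 fold change 0.47) and Pgm2 (0.27) were each lost in at least 4 of the 6 fits with a library left out, with edgeR adjusted p up to 0.14 and 0.16. Of 9 further genes of pentose phosphate and ribose, 1 was higher and 2 lower. The enzymes that make the ribose donor for nucleotides split, with Prps1 1.29-fold higher (119, 125 and 127 CPM and 155, 159 and 164 CPM) and Prps2 1.35-fold lower (97.5, 91.7 and 98.2 CPM and 67.0, 76.7 and 69.0 CPM). Rpia, the ribose phosphate isomerase, was 1.17-fold lower, a call lost in 4 of the 6 fits with a library left out (edgeR adjusted p up to 0.12).

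Of 11 further genes of the HIF machinery, 3 were higher and 1 lower. Epas1, the gene of HIF-2alpha, stood at 0.723, 0.665 and 0.456 CPM in the PBS group and 14.5, 14 and 14.3 CPM in the IL-3 group. It was scarce in every PBS library and passed the filter through the IL-3 group alone, where it was high. Its call and p are therefore given as a description and not as support for a difference. The fitted difference was 4.52 on the log2 scale (SE 0.20, edgeR adjusted p = 3.6e-11). On the log2(TPM + 1) scale, which compresses low levels, the Epas1 difference was 2.36. Arnt, the partner subunit, was 1.15-fold higher at 57.6, 58.0 and 58.6 CPM and 68.4, 65.0 and 67.1 CPM. The Arnt call was lost without PBS replicate 3 (edgeR adjusted p = 0.057), IL-3 replicate 1 (0.075) or IL-3 replicate 3 (0.068). Cited2, an inhibitor of HIF, was 1.32-fold lower at 23.0, 19.2 and 20.5 CPM and 15.3, 15.2 and 16.8 CPM. Vhl, whose product brings hydroxylated HIF alpha to degradation, stood at 18.6, 22.5 and 18.2 CPM and 18.1, 18.3 and 19.1 CPM and was not called. Cul2, of the same ligase, had a log2 fold change of 0.19, a call lost in 4 of the 6 fits with a library left out (edgeR adjusted p up to 0.14).

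Of 24 further hypoxia-responsive genes, 8 were higher and 3 lower. P4ha2, the sister of P4ha1, stood at 2.06, 1.5 and 0.855 CPM in the PBS group and 17.3, 17.8 and 15.3 CPM in the IL-3 group. It was thus 11.4-fold higher (log2 fold change 3.51, SE 0.21), while P4ha1 was lower. Hmox1, the heme oxygenase, was 2.03-fold higher at 8.46, 7.48 and 6.44 CPM and 14.5, 16.8 and 14.2 CPM. Bhlhe40, a transcription factor of activated T cells, was 1.70-fold higher at 291, 279 and 248 CPM and 470.0, 431 and 489 CPM. Mxi1, a MAX-binding antagonist of MYC, was 2.25-fold higher at 20.7, 14.1 and 13.6 CPM and 36.5, 35.7 and 36.7 CPM (log2 fold change 1.17, SE 0.14), with PBS replicate 1 above the rest of its group. In each of these 4 genes the groups did not overlap. These 4 were named for the smallest p, and all were higher. The 3 lower genes are not named, and 1 of them had the lowest log2 fold change of the list, -0.93. The 13 genes not called in this list had log2 fold changes from -0.25 to 0.83.

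Of 17 regulators of glycolysis, 2 were higher and 8 lower, beside 14.8% and 16.1% of all genes tested. The called genes given below are all lower. The 2 higher genes are not named, and the highest log2 fold change of the list was 0.32. Myc, the driver of glycolytic genes in activated T cells, stood at 502, 494 and 458 CPM in the PBS group and 417, 391 and 444 CPM in the IL-3 group. Its groups did not overlap, and it was 1.16-fold lower (log2 fold change -0.22, SE 0.06, edgeR adjusted p = 0.0088). The call was lost without PBS replicate 2 (edgeR adjusted p = 0.052) or IL-3 replicate 2 (0.066). Mycn stood at 4.17, 3.27 and 4.05 CPM and 1.24, 0.811 and 0.511 CPM and was 4.47-fold lower, but it passed the filter through the PBS group alone. On the log2(TPM + 1) scale of 6 libraries its difference was -1.32, beside -2.16 in the counts. Txnip, which restrains glucose uptake, was 1.56-fold lower at 66.2, 62.3 and 67.6 CPM and 38.2, 39.6 and 47.8 CPM. Foxk1 and Mlxip, transcription factors that act on glycolytic genes, were also lower, with log2 fold changes of -0.31 and -0.34. Irf4, which sustains glycolysis in effector T cells, stood at 635, 638 and 622 CPM and 596, 622 and 613 CPM and was not called.

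**Figure D5:**
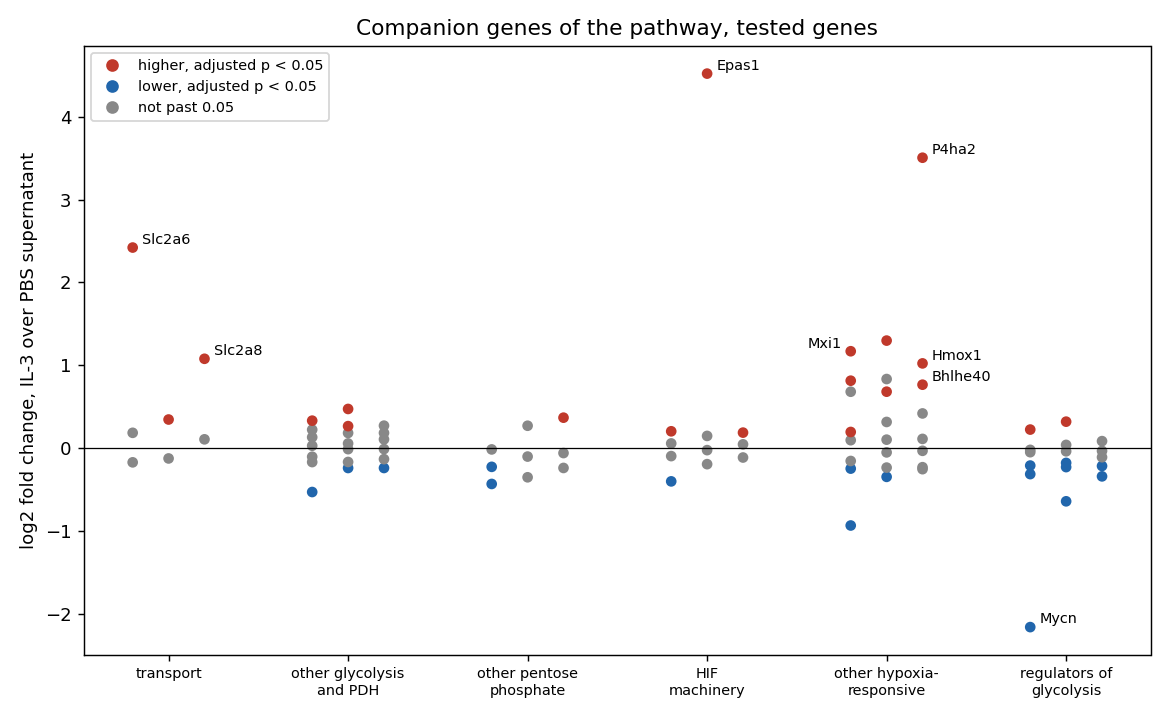
Log2 fold change, IL-3 over PBS supernatant (y axis), of the 88 tested genes of the 6 further lists (x axis), coloured by call, with the named genes of 0.75 or more in size labelled. Epas1, P4ha2 and Slc2a6 lie above 2, while Mycn lies below -2.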

How the data were processed

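Per the labels, the 6 libraries were made from poly(A) RNA with an Illumina TruSeq kit, and groups and replicate numbers come from the sample titles. The submitters' processing notes name RSEM 1.2.12, Bowtie2 2.2.0, edgeR 3.20.9 and the build GRCm38. Their order, the annotation and the strand setting were not found (not given in the sources used here), so reads of a gene and its antisense partner cannot be told apart. The authors deposited a table of expected counts per gene for each library, in which a read that fits several genes is divided among them. The authors also deposited TPM, by gene in 5 libraries but by isoform in PBS replicate 2, where values were summed per gene (99.5% of its TPM matched).

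The members and lists were chosen with earlier results of these data known. Expected counts were rounded and fitted with edgeR 4.0.16 in R 4.3.3 (filterByExpr, which asked for a CPM of 0.526, TMM factors, robust quasi-likelihood fit on group, Benjamini-Hochberg over 12407 genes, threshold 0.05). The fit was also run on counts simulated from its own means and dispersions, which cannot check whether the model suits these libraries. Tested genes held at least 99.9% of the counts of each library, and the common coefficient of variation was 0.0939. Symbols matched 46005 of 46517 identifiers, and coordinates are from GENCODE on GRCm38. Promoters are from the RefSeq table. Isozyme shares were compared with an exact two-sided permutation test over libraries. Copies of at least 95% identity over 200 bases were found with BLAST 2.17.0.

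All 38 members are reported, with values in every library for called members and for the most abundant of each step. From each further list up to 4 called genes with the smallest p are named, plus Slc2a1, Slc2a3, Slc16a1, Slc16a3, Txnip, Myc, Epas1, Arnt, Vhl and Irf4. Of the further lists, 1 gene is not reported here and is left out of their counts. Alternatives were other size factors, other filters, DESeq2 1.42.0, limma-voom and limma on log2 TPM with limma 3.58.1, a replicate block, a stricter threshold, summing of copies and leaving out each library.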

Additional observations from a re-analysis of the deposited data

How the results depend on the processing

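Of the 12 called members, Hk2, Eno3, Pdk1, Pfkfb3 and Egln3 kept their call under each of the 21 alternatives, 7 lost it under at least 1, and none of the 12 changed sign. Vegfa lost it under 1 alternative (log2 TPM without a filter), Gpi1 under the 3 fits on TPM of 5 libraries, Pfkm and P4ha1 under 8 each, Gapdh under 10, and G6pdx and Egln1 under 11 each. Of the 26 members not called, 6 were called under at least 1 alternative. Hif1a was called under 6 (DESeq2 size factors, no filter, the DESeq2 test, limma-voom, the replicate block and without PBS replicate 1), Pdk2 under 3 of 18 (library size only, limma-voom and without IL-3 replicate 1), Hk1 and Ndrg1 under 2 each, Pfkfb4 under 1 and Pfkp under 1 (log2 TPM of 6 libraries). Of 6 higher and 6 lower members, limma on log2(TPM + 1) of 5 libraries gave 3 and 3, with a pseudocount of 0.1 it gave 3 and 3, and without a filter 2 and 3. An adjusted p below 0.01 left 3 higher. With a library left out, the counts ran from 3 to 8 higher and from 4 to 7 lower. Of 20 higher and 17 lower genes of the further lists, limma on log2(TPM + 1) of 5 libraries without a filter gave 7 higher and 3 lower. The 2 filtered fits on 5 libraries and the one on 6 libraries gave 8 lower each, and an adjusted p below 0.01 gave 13 higher and 9 lower. With a library left out, these counts ran from 14 to 20 higher and from 9 to 15 lower. Over all genes, calls under limma on log2(TPM + 1) were 1096 higher and 1325 lower with 5 libraries and 636 and 826 without a filter, beside 1834 and 2001. The fits on 5 libraries have fewer samples, and for the rest the cause was not tested.

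Sign changes were confined to uncalled members and Vhl, all near 0, and to the Bnip3 and Bnip3l shares. Ldha went to -3.3e-05 under limma-voom. Vhl went to 0.014 under limma on log2(TPM + 1) of 5 libraries, 0.014 with a pseudocount of 0.1 and 0.014 without a filter. With a library left out, the log2 fold change ran from -0.013 to 0.020 for Pgk1, from -0.031 to 0.046 for Ldha, from -0.021 to 0.057 for Pdk3 and from -0.15 to 0.018 for Vhl. The Bnip3 share in summed CPM differed by -0.817 points and that of Bnip3l by 0.817 points. With a library left out, they ran from -2.54 to 2.31 points for Bnip3 and from -2.31 to 2.54 points for Bnip3l.

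The labels do not say that same-numbered libraries share an animal or a day. Their deviations correlated at -0.148, 0.052 and 0.255, so the numbers were not taken to pair them. With a replicate block, 5 members were higher and 6 lower, with Gapdh and G6pdx losing and Hif1a gaining its call, and 15 genes of the further lists were higher and 15 lower. Depth limits scarce genes such as Pdk2, which had 2 counts in IL-3 replicate 3.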
